A study of Mus musculus with 21 samples.

Results

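The Zbtb genes encode transcription factors that carry a BTB domain and C2H2 zinc fingers. They were followed in poly(A) RNA of EL4, a mouse T lymphoma line of C57BL/6 origin, in 2 libraries of cells with a short hairpin against Ctcf (shCTCF) and 2 libraries of cells with a hairpin against luciferase (shLuc), which has no target in mouse cells. Members were all rows of the deposited expression table whose symbol is Zbtb followed by a number and at most a single letter. This gave 34 of the 21844 distinct symbols, and each had a single row. The row Zbtb8os, which the rule does not take, and the rows that join Zbtb11, Zbtb17 or Zbtb38 with an overlapping gene were not members. The labels do not say how many hairpins or clones were used, nor whether separate cultures lie behind the libraries. P-values here cover the spread among these libraries alone, and that spread may be technical.

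In BTB zinc finger proteins the BTB domain, at the amino end, pairs 2 protein chains and can bind corepressors and the ubiquitin ligase scaffold CUL3. The zinc fingers, nearer the carboxyl end, bind DNA. Members are known for fate decisions of blood cells, among them ThPOK (Zbtb7b) in helper T cells and PLZF (Zbtb16) in innate-like T cells. CTCF, the target of the hairpin, is itself a zinc finger protein without a BTB domain, and it holds chromatin loops together with cohesin.

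Levels were deposited as RPKM, read counts scaled by the length of the gene model and by library size, and can be compared between genes. The divisors behind these values were 4346709 and 5768562 reads in the shCTCF libraries and 5240361 and 6133045 reads in the shLuc libraries, so that a single read on a 1 kb model was worth 0.163 to 0.23 RPKM. In each group the libraries are named in the order of their column numbers, 2 and 3. The targeted gene was lower, as labelled: Ctcf had 26.5 and 26.4 RPKM in shCTCF cells, against 49.0 and 50.9 RPKM in shLuc cells (log2 change −0.89, SE 0.08, limma adjusted p = 0.0075). Log2 changes throughout are shCTCF minus shLuc of log2(RPKM + 1), which understates the change of low genes. Of the T cell markers Cd3d, Cd3e, Cd3g, Thy1, Lck, Cd2, Cd5, Zap70 and Lat, every one was above 18 RPKM in each library. The 5 B cell markers lay at 0 to 0.434 RPKM, with 3 of them, Ms4a1 and Pax5 included, at 0 throughout. Of 5 myeloid markers the summed level was 2.07 to 3.01 RPKM in shCTCF against 2.33 to 3.56 RPKM in shLuc cells, and of 5 cytotoxic cell markers it was 4.9 to 6.67 RPKM in shCTCF against 2.96 to 5.15 RPKM in shLuc cells. The 4 fibroblast markers reached at most 0.324 RPKM. What the hairpin did through Ctcf and what it did otherwise cannot be told apart in this design.

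The gene that fell was Zbtb39, a less studied member of the family. Its RNA had 0.967 and 0.961 RPKM in the shCTCF libraries, against 2.98 and 3.43 RPKM in the shLuc libraries. Both shCTCF libraries were far below both shLuc libraries, and the groups averaged 0.964 ± 0.00366 RPKM and 3.20 ± 0.313 RPKM (SD, n = 2 each). The shCTCF mean was 30.1% of the shLuc mean. These values rest on 25 and 33 reads in shCTCF cells and 93 and 125 reads in shLuc cells, over a gene model (NM_198035) of 5950 bases. At so few reads counting error alone is larger than the shCTCF SD, so that SD is no measure of precision. The log2 change was −1.10 (SE 0.18, 95% interval −1.50 to −0.69), with an adjusted p = 0.031 in limma over 9898 tested genes. The authors' deposited table lists 435 genes as changed, and Zbtb39 is its only Zbtb row, with a log2 fold change of −1.75 and an FDR of 1.3e-13. It rests on these 4 libraries too and is no separate evidence.

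The size of the Zbtb39 change depends on the scale, and its call on having all 4 libraries. With 0.1 in place of 1 added to the RPKM the log2 change was −1.63, and with limma-voom on reads recovered from the RPKM values, added once the data had been seen, it was −1.72. With any library left out it was −1.17 to −1.02 and did not pass (adjusted p 0.074 to 0.27 in limma), and without the filter on low values the adjusted p was 0.32. The gene passed the filter, a mean of 1 RPKM over the 4 libraries, through its shLuc values.

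The promoter of Zbtb39 is shown for a repeat that was picked out on reading it. The sequence below runs from 250 bases before to 50 bases after the gene's start in RefSeq (build GRCm38.p6, chr10:127739280-127739579, plus strand), 5′ to 3′. Capitals mark each match to GGGGGCGCT, letters that form the 3′ part of many CTCF recognition sequences.
Zbtb39: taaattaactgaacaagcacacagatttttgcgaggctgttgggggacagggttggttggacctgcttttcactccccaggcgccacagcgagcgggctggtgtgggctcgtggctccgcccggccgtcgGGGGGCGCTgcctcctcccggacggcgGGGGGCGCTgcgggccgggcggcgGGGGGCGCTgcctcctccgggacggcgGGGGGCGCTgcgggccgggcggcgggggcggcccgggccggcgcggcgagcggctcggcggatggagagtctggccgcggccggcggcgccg

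The window held 4 matches, all on the strand of the gene, beginning 120, 93, 69 and 42 bases before the start. Counted from first base to first base they lay 27, 24 and 27 bases apart. Matches on both strands were counted, and no match overlapped another. The stretch holding the first pair of matches recurs nearly letter for letter around the last pair, so the 4 are not independent. The letters were chosen after this promoter had been read. Its rank among windows was thus largely fixed in advance and tests nothing. Of 32851 promoter windows of the same length in the RefSeq table, 0.734% held them at least once. Of 27025 genes 3 had a window with 2 or more copies, and Zbtb39 alone had 4. Among the 29 members with a promoter in the table, Zbtb39 was the only one with a match. The window is rich in G and C (77.0%), as are those of the tested members in general, with a median of 69.2% against 52.7% over all windows. Of the 797 windows at least as rich as that of Zbtb39, 3.39% held the letters. A longer form of the CTCF core motif, with variable positions, was written down before the promoters were read. Searched on both strands, it was found in 2.43% of all windows and in no member, Zbtb39 included.

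Apart from Zbtb39, 88 genes with GGGGGCGCT in a promoter window were tested, of which 1 rose and 1 fell. This is 2.27%, against 1.29% of all 9898 tested genes called in limma. Of 230 tested genes with the longer form 1 rose and 0 fell (0.435%). Both counts are small. The other genes with more than a single copy were Alg5 and Exosc8, with 2 copies each and log2 changes of −0.12 and 0.11 (limma adjusted p = 0.64 and 0.60). A match describes the letters only. The series includes CTCF ChIP-seq samples of EL4 cells, which were not analysed here.

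Of the 34 members, 26 had a mean of 1 RPKM or more and were tested. The lowest of these was Zbtb37, with a mean of 1.15 RPKM, and the highest below the limit was Zbtb3, with 0.95 RPKM. By limma 0 members rose and 1 fell, against 0.697% and 0.596% of all tested genes. With limma-voom the same gene alone was called among 23 members, against 350 of 7994 genes in all. An unadjusted p below 0.05 was reached by Zbtb39 and Zbtb45, 2 of 26, against 14.1% of all tested genes. For 11 members (42.3%) the 2 groups were fully separate, against 44.0% of all tested genes. Of these, 6 had shCTCF above and 5 had shCTCF below, against 24.1% and 19.9% of all tested genes. The share of members that separate was thus near the background. Intervals are on the scale of RPKM + 1, which understates the change of low genes. For 25 of the 26 the 95% interval lay within a 2-fold change on it in either direction, and for 24 within 1.5-fold. The corresponding shares of all tested genes were 96.9% and 82.6%. The exception to the first was Zbtb39, and Zbtb45 also missed the second. The median log2 change of the tested members was 0.06, and 18 of 26 were positive, against a median of 0.012 and 53.3% positive over all tested genes.

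**Figure D1:**
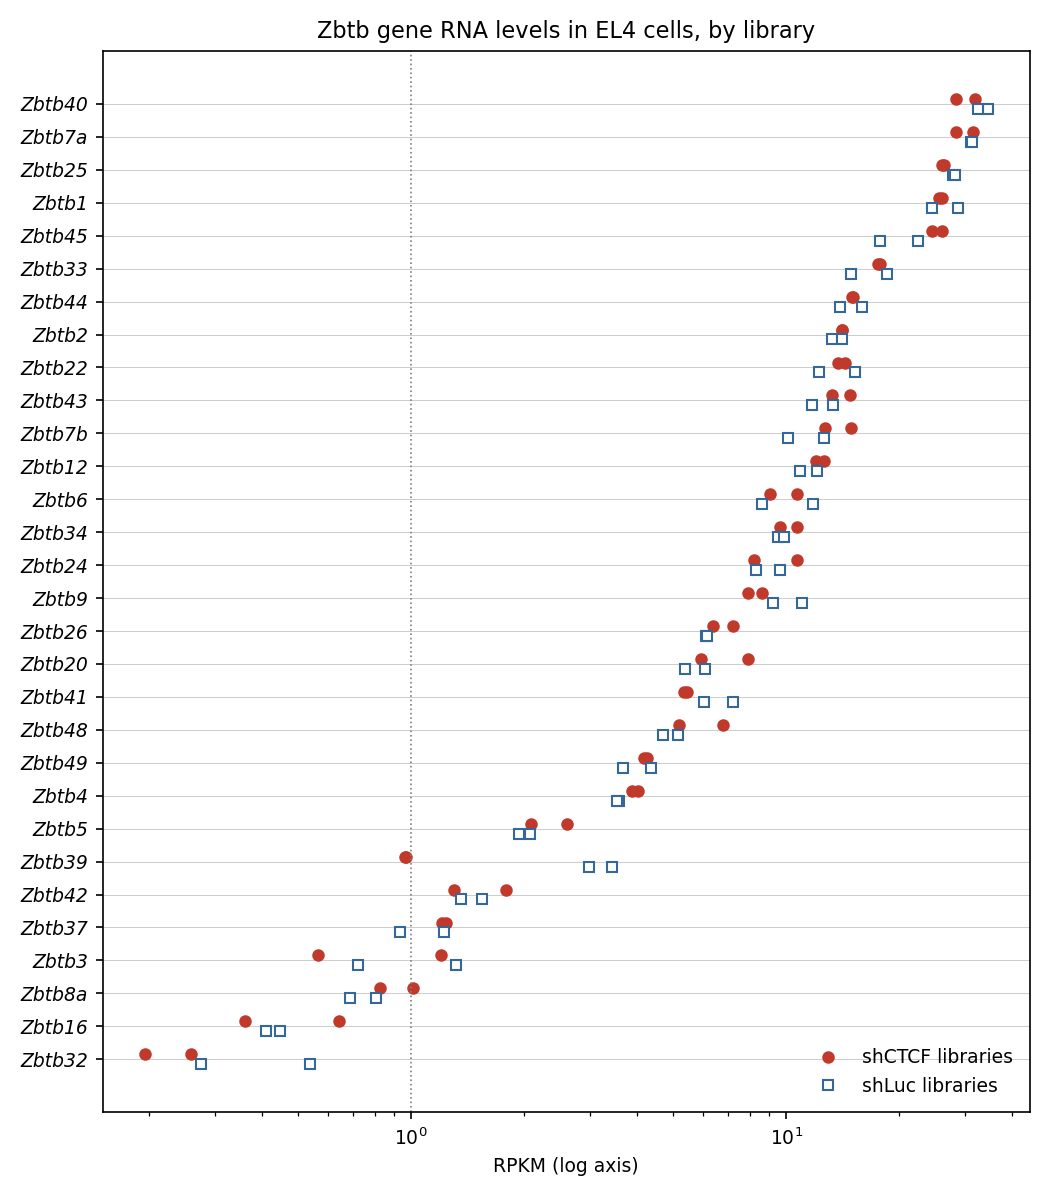
RPKM on a log axis of the 30 Zbtb genes with a mean above 0.1 RPKM, ordered by mean level, with shCTCF libraries as filled circles and shLuc libraries as open squares below them. The dotted line marks 1 RPKM. The groups stand well apart for Zbtb39, at 0.967 and 0.961 RPKM in shCTCF against 2.98 and 3.43 RPKM in shLuc cells, and lie close together for most others.

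**Figure D2:**
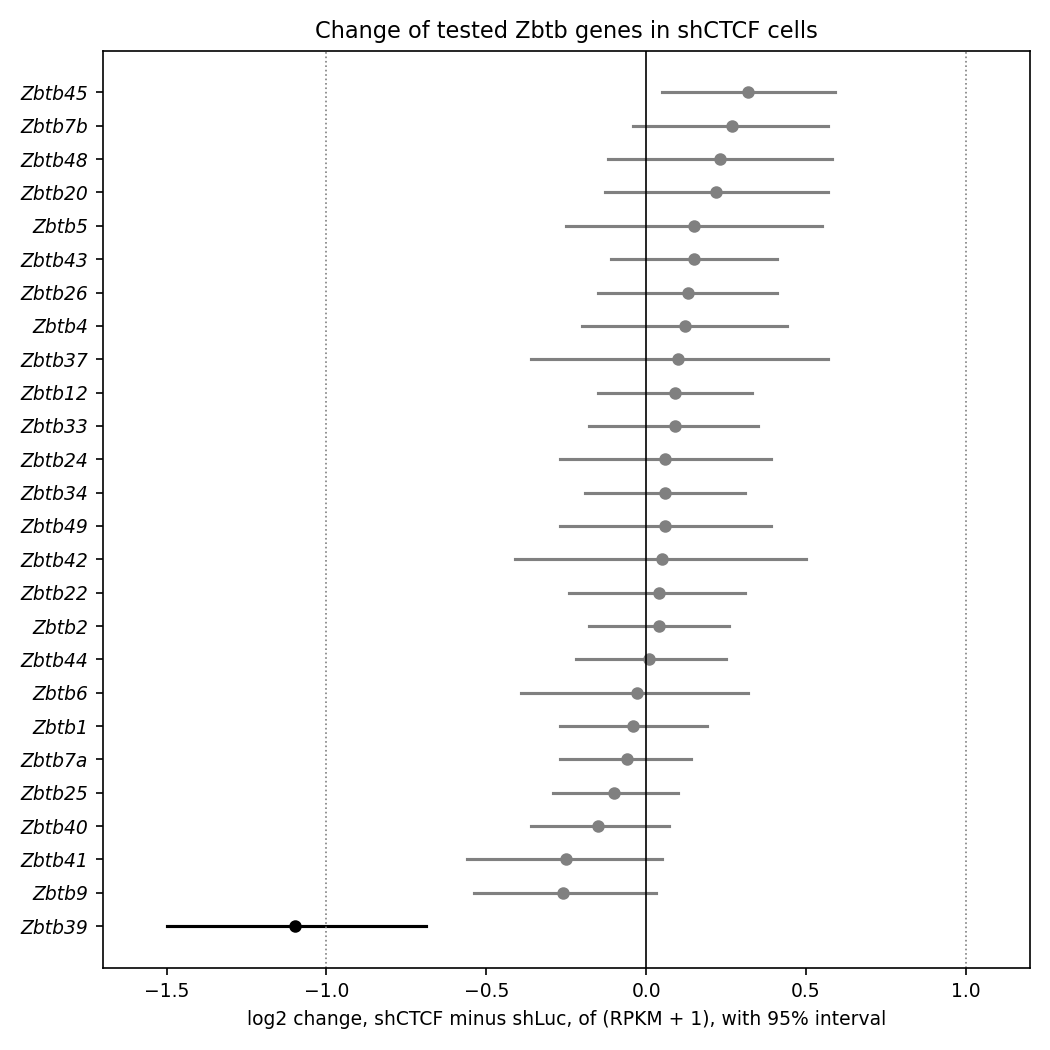
Log2 change of (RPKM + 1), shCTCF minus shLuc, with its 95% interval from limma (2 libraries each) for the 26 tested Zbtb genes. Zbtb39 in black, at −1.10, is the gene past the adjusted threshold. Dotted lines mark a 2-fold change of RPKM + 1 in either direction.

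The most abundant members were Zbtb40, Zbtb7a, Zbtb25, Zbtb1 and Zbtb45, the 5 with a mean of 20 RPKM or more. Another 8 lay from 10 to 20, 7 from 5 to 10 and 6 below 5 RPKM. The median level of the tested members was 10.0 RPKM in shCTCF and 10.1 RPKM in shLuc cells, below that of all tested genes (17.7 and 17.6 RPKM).

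Several of these abundant members act in lymphocytes. Zbtb7a (LRF), which directs the choice between B and T cell fates and represses fetal globin, had 31.4 and 28.3 RPKM in shCTCF against 31.1 and 31.3 RPKM in shLuc cells. The groups overlapped, and the log2 change was −0.06 (SE 0.09, limma adjusted p = 0.82). Zbtb1, needed for lymphocyte development in mice, had 26.0 and 25.5 RPKM in shCTCF against 24.4 and 28.7 RPKM in shLuc cells, with both shCTCF values between the shLuc values (log2 change −0.04). Zbtb25, described as a repressor of NFAT target genes in T cells, had 26.0 and 26.3 RPKM in shCTCF against 27.9 and 28.2 RPKM in shLuc cells. The groups did not overlap, but the log2 change of −0.10 (95% interval −0.29 to 0.10) did not pass in limma (adjusted p = 0.69). Its row joins several transcripts.

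Zbtb7b, the ThPOK factor that commits thymocytes to the CD4 helper lineage, had 14.9 and 12.7 RPKM in shCTCF against 12.6 and 10.1 RPKM in shLuc cells. The lowest shCTCF value exceeded the highest shLuc value only slightly, and the log2 change of 0.27 (95% interval −0.04 to 0.57) had a limma adjusted p = 0.43. Zbtb20, a repressor known from liver and long-lived plasma cells, had 7.88 and 5.91 RPKM in shCTCF against 6.08 and 5.36 RPKM in shLuc cells, with overlap (log2 change 0.22, adjusted p = 0.58 in limma). Leaving out 1 library moved these changes over 0.12 to 0.42 for Zbtb7b and 0.04 to 0.40 for Zbtb20.

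Other lymphoid members were near the limit of detection. Zbtb16, the PLZF factor of natural killer T cells, had 0.36 and 0.644 RPKM in shCTCF against 0.41 and 0.446 RPKM in shLuc cells, on 8 and 19 against 11 and 14 reads. Zbtb32, a repressor of cytokine genes induced in activated lymphocytes, had 0.259 and 0.195 RPKM in shCTCF against 0.538 and 0.276 RPKM in shLuc cells, on 2 and 2 against 5 and 3 reads. Zbtb46, a marker of classical dendritic cells, was at 0.114 RPKM in the first shCTCF library and listed at 0 in the other 3 libraries. All 3 were below the filter, and without it 0 of the 34 members passed in limma, with 2 at an unadjusted p below 0.05. A few reads decide the values of Zbtb32 and Zbtb46. Zbtb17 (Miz-1), a partner of Myc, shares its row with Spen and has no value of its own. In the 5 tested members of the lymphoid list 0 passed in limma (0 at an unadjusted p below 0.05). Beside these values, the summed level of the 9 T cell markers with a row of their own was 1500 RPKM in both shCTCF libraries, against 1700 to 1770 RPKM in the shLuc libraries. Cd3d, Cd3e and Cd3g overlapped between groups, with log2 changes of −0.03, 0.01 and −0.03, and the other 6 had shCTCF below. The sum leans on Thy1, the highest marker, with 498 and 468 RPKM in shCTCF against 640 and 590 RPKM in shLuc cells. Of these 9 markers 8 had a negative log2 change, with 0 past the threshold in limma and 6 at an unadjusted p below 0.05. Over all tested genes 53.3% were positive, 1.29% passed and 14.1% had such a p. The part of that shift in the values of lymphoid members was not tested, and in bulk RNA fewer cells of a type and less RNA per cell cannot be told apart.

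The next group binds methylated DNA. Zbtb33 (Kaiso), which recognises methylated CpG pairs and binds p120 catenin, had 17.6 and 17.8 RPKM in shCTCF against 14.9 and 18.5 RPKM in shLuc cells. Both shCTCF values fell between the shLuc values, and the log2 change was 0.09 (95% interval −0.18 to 0.35, limma adjusted p = 0.80). Zbtb4, a relative of Kaiso that binds single methylated CpGs, had 4.03 and 3.88 RPKM in shCTCF against 3.59 and 3.54 RPKM in shLuc cells. Its groups did not overlap, with a log2 change of 0.12 that did not pass (adjusted p = 0.78 in limma). Zbtb38, the remaining relative, shares its row with another gene and is not reported.

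A further group has roles at telomeres, centromeres or in genome stability. Zbtb40, the member with the highest level, had 31.9 and 28.3 RPKM in shCTCF against 34.4 and 32.5 RPKM in shLuc cells. The groups were separate by less than 1 RPKM, and the log2 change was −0.15 (95% interval −0.36 to 0.07, limma adjusted p = 0.55). Zbtb48 (TZAP), which binds telomere repeats and limits telomere length, had 5.17 and 6.78 RPKM in shCTCF against 5.14 and 4.69 RPKM in shLuc cells. The groups were separate only just, with the first shCTCF library beside the shLuc values, and the log2 change of 0.23 (adjusted p = 0.57 in limma) came to 0.06 without the other shCTCF library. Zbtb24, whose loss in humans causes an immunodeficiency with unstable centromeres, had 8.21 and 10.7 RPKM in shCTCF against 9.64 and 8.29 RPKM in shLuc cells. The shCTCF values enclosed the shLuc values, with a log2 change of 0.06 (limma adjusted p = 0.92). Zbtb10, the last of this group, was listed at 0 in all 4 libraries.

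Among the remaining tested members the largest values of change belonged to Zbtb45, Zbtb9 and Zbtb41. Zbtb45, known from the differentiation of glial cells, had 26.0 and 24.5 RPKM in shCTCF against 22.5 and 17.8 RPKM in shLuc cells. The groups were separate, but the spread within shLuc cells was wide. The log2 change was 0.32 (SE 0.12), with an unadjusted p of 0.0268 and an adjusted p = 0.27 in limma, and 0.16 to 0.48 with 1 library left out. Zbtb9 had 8.59 and 7.91 RPKM in shCTCF against 11.0 and 9.20 RPKM in shLuc cells, with separate groups and a log2 change of −0.26 (SE 0.12, limma adjusted p = 0.41). Zbtb41 had 5.42 and 5.35 RPKM in shCTCF against 6.05 and 7.21 RPKM in shLuc cells, also separate, with a log2 change of −0.25 (SE 0.13, adjusted p = 0.46 in limma). After Zbtb39, Zbtb9 and Zbtb41 had the lowest log2 changes of the tested members.

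Zbtb5, a repressor in the p53 pathway, had 2.60 and 2.08 RPKM in shCTCF against 1.94 and 2.07 RPKM in shLuc cells, nearly touching, with a log2 change of 0.15. Zbtb43 had 13.2 and 14.8 RPKM in shCTCF against 11.7 and 13.3 RPKM in shLuc cells, with overlap and a log2 change of 0.15 (limma adjusted p = 0.63). The other 10 tested members, Zbtb2, Zbtb6, Zbtb12, Zbtb22, Zbtb26, Zbtb34, Zbtb37, Zbtb42, Zbtb44 and Zbtb49, had log2 changes from −0.03 for Zbtb6 to 0.13 for Zbtb26. Zbtb26 was the only gene of these 10 whose groups were separate, at 6.38 and 7.21 RPKM in shCTCF against 6.09 and 6.13 RPKM in shLuc cells.

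The 8 members below the limit included Zbtb7c, Zbtb8b and Zbtb10, listed at 0 in all 4 libraries. A value of 0 allows up to 3 reads per library, which on a 1 kb model is 0.489 to 0.69 RPKM, for counting error only. Zbtb3 had 0.565 and 1.2 RPKM in shCTCF against 1.32 and 0.72 RPKM in shLuc cells, and Zbtb8a 0.826 and 1.01 RPKM in shCTCF against 0.685 and 0.805 RPKM in shLuc cells. For the tested members the median absolute log2 difference between libraries of a group was 0.10 in shCTCF and 0.16 in shLuc cells. The largest was 0.36 and 0.41. In 6 members, Zbtb39, Zbtb45, Zbtb9, Zbtb41, Zbtb4 and Zbtb25, the change between groups exceeded the difference within either group. The share of all tested genes with this property was not counted, so it is not read as a trait of these members.

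**Figure D3:**
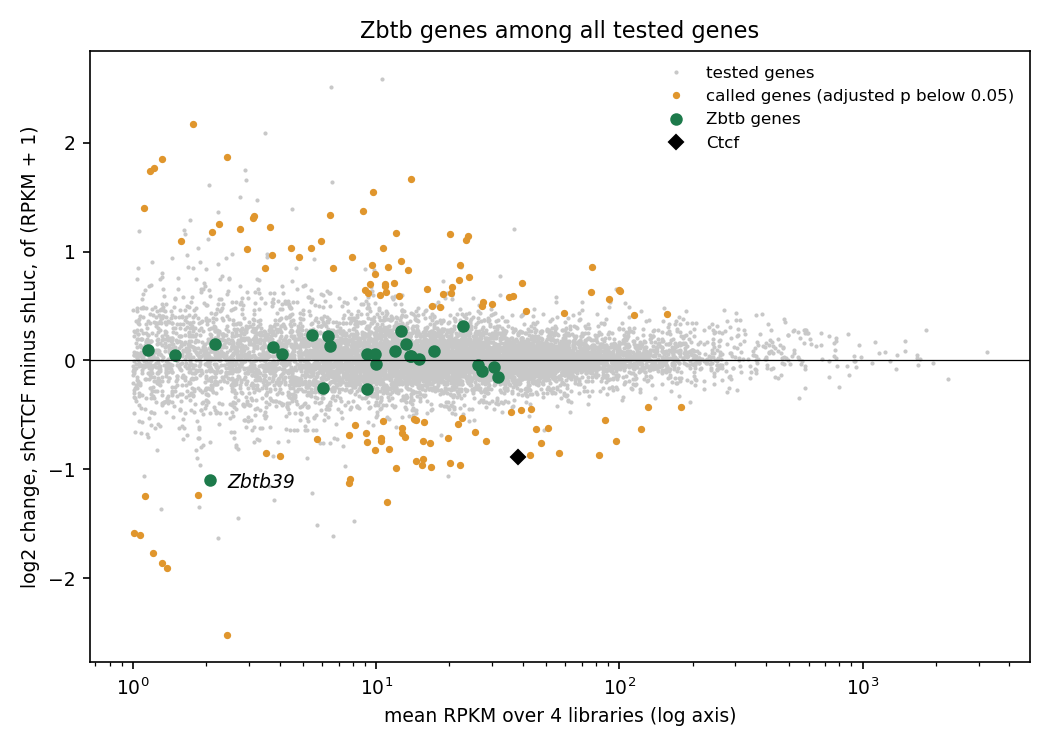
Log2 change of (RPKM + 1), shCTCF minus shLuc, against mean RPKM over the 4 libraries (log axis) for the 9898 tested genes in grey, the 128 called genes in orange, the 26 tested Zbtb genes in green and Ctcf as a black diamond. Zbtb39, at −1.10, lies apart from the other Zbtb genes, which range from −0.26 to 0.32.

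The genes directly beside Zbtb39 were too low to be tested. Rows tested somewhat further away did not pass in limma, in either direction, against 1.29% of all tested genes called. On chromosome 10 the 5 protein-coding genes on each side in the RefSeq order are Stat6, Nab2, Nemp1, Myo1a and Tac2 on one side and Gpr182, Rdh1, Rdh9, Rdh16 and Rdh19 on the other. Stat6, the transcription factor activated by IL-4, shares a row with the corepressor gene Nab2. That row had 42.8 and 41.5 RPKM in shCTCF against 45.2 and 41.1 RPKM in shLuc cells, with overlap and a log2 change of −0.03 (95% interval −0.23 to 0.17, limma adjusted p = 0.93). Nemp1, a nuclear envelope protein listed as Tmem194, had 9.38 and 8.87 RPKM in shCTCF against 7.03 and 7.77 RPKM in shLuc cells. Its groups were separate with shCTCF higher, and the log2 change was 0.27 (adjusted p = 0.34 in limma). The other 7 neighbours were not tested. Gpr182, the nearest on the far side, had 0 and 1 reads in shCTCF against 1 and 4 reads in shLuc cells, and Tac2, the nearest on the near side, was listed at 0 in all libraries.

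**Figure D4:**
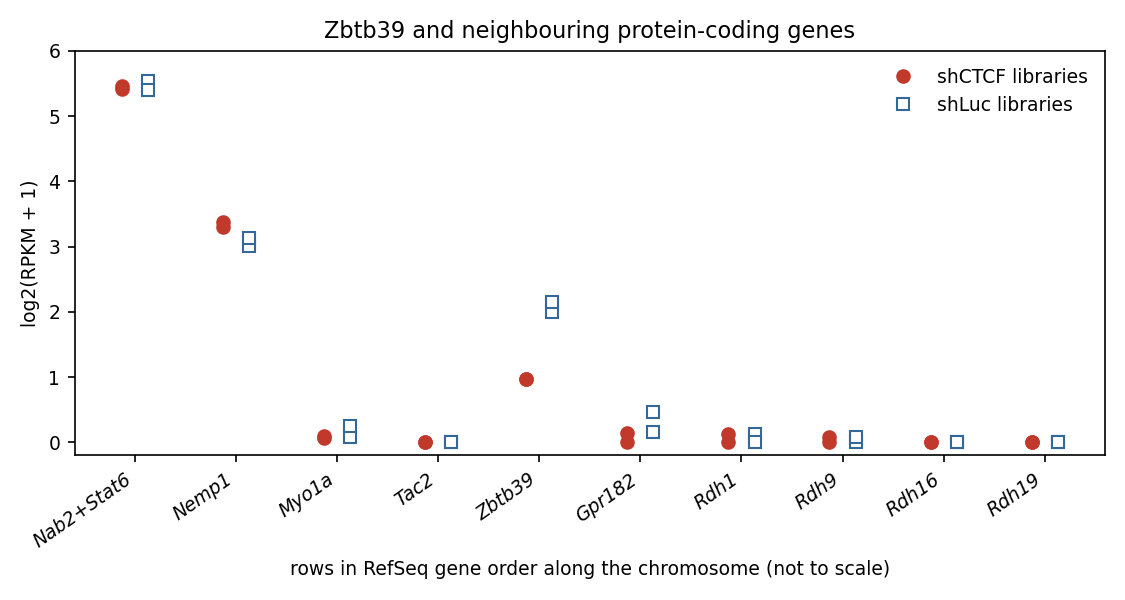
Level as log2(RPKM + 1) of Zbtb39 and the rows of its neighbouring protein-coding genes in RefSeq gene order, with shCTCF libraries as filled circles left of shLuc libraries as open squares. Among the 3 rows above 1 RPKM, Zbtb39 shows shCTCF far below shLuc, the joined Nab2 and Stat6 row overlaps, and Nemp1 is higher in shCTCF.

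Some members are neighbours of each other. Zbtb25 and Zbtb1 on chromosome 12, which are transcribed away from each other, had log2 changes of −0.10 and −0.04. Zbtb6 and Zbtb26 on chromosome 2 had −0.03 and 0.13, and Zbtb34 and Zbtb43 on the same chromosome had 0.06 and 0.15. None of these 6 genes passed in limma. Zbtb8a and Zbtb8b on chromosome 4 were below the limit for testing.

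BTB zinc finger genes under other symbols were counted separately. Of 13 that were looked for, 11 had a row of their own and 8 were tested. In limma 0 passed, with 1 at an unadjusted p below 0.05, against 1.29% and 14.1% of all tested genes. Limma-voom on recovered reads called 1 of 6, against 350 of 7994 genes in all. That gene was Hic2, a transcriptional repressor, at 3.85 and 4.07 RPKM in shCTCF against 3.01 and 2.21 RPKM in shLuc cells (log2 change 0.47, limma adjusted p = 0.25). With limma-voom its log2 change was 0.63 (adjusted p = 0.018). Zfp161 (Zbtb14) had 17.1 and 18.2 RPKM in shCTCF against 15.6 and 15.5 RPKM in shLuc cells, also separate (log2 change 0.17, adjusted p = 0.48 in limma). In this list 6 of 8 were positive, with a median log2 change of 0.142, against 53.3% positive and a median of 0.012 over all tested genes.

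The next list holds corepressors and partners through which BTB zinc finger proteins act. Of 22 tested genes, among them Sin3a, Hdac1, Hdac2, Hdac3 and Cul3, 0 passed in limma, against 1.29% of all tested genes. The unadjusted p of 1 was below 0.05, against 14.1% of all tested genes. Limma-voom called 0 of 16, against 350 of 7994 genes in all. The count called is near the background. Log2 changes ran from −0.19 to 0.20 with a median of 0.015. The ends were Mta3, a subunit of the NuRD complex, and Myc, whose product forms a repressive complex with the Zbtb17 protein. Mta3 had 19.8 and 18.8 RPKM in shCTCF against 20.7 and 23.8 RPKM in shLuc cells (adjusted p = 0.47 in limma). Myc had 178 and 177 RPKM in shCTCF against 160 and 148 RPKM in shLuc cells (adjusted p = 0.27 in limma).

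T cell factors and target genes that act beside Zbtb7b form the last list. Of 17 tested, 1 fell and 0 rose, against 0.596% and 0.697% of all tested genes. An unadjusted p below 0.05 in limma was reached by 5, against 14.1% of all tested genes. In 13 (76.5%) the groups were separate, against 44.0% of all tested genes. Of these, 11 had shCTCF below and 2 above, against 19.9% and 24.1%. The list was chosen with earlier results of these data known. Of the 17, 14 had a negative and 3 a positive log2 change, against 53.3% positive over all tested genes, with a median of −0.137. Summed, the T cell markers had 1500 RPKM in both shCTCF libraries against 1700 to 1770 RPKM in shLuc cells. The groups overlapped for Cd3d, Cd3e and Cd3g, and the other 6 markers were lower in shCTCF. The part of this difference in the values of the list was not tested. The gene that fell was Bcl11b, required for T lineage commitment, at 16.4 and 17.9 RPKM in shCTCF against 25.1 and 27.2 RPKM in shLuc cells (log2 change −0.58, SE 0.10, limma adjusted p = 0.035). It did not pass without any one of the 4 libraries (adjusted p 0.093 to 0.28). Zfp genes, the larger family of zinc finger genes with numbered symbols, gave 1 higher and 1 lower call among 230 tested (0.87%), a median log2 change of 0.031 and separate groups in 42.2%. The difference of the Zbtb genes from them was not tested.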

How the data were processed

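Expression came from 4 poly(A) RNA libraries of EL4 cells, 2 with an shCTCF and 2 with an shLuc hairpin. The other 17 of the 21 samples and the Hi-C domain lists were not used here. The submitters' processing notes name Bowtie2 and the build mm9. For the counting tool the sources used here give no name. RPKM for 22119 rows were deposited by the authors. Their second deposited table holds changed genes with the same RPKM and, per the file headers, p-value, FDR, log2 fold change and log2 CPM. Its columns are numbered 1 and 2 where the full table has 2 and 3, so libraries were used as replicates of their hairpin without a match to single samples.

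For each symbol the row with the highest mean was kept. On log2(RPKM + 1), 9898 genes averaging at least 1 RPKM were fitted by group alone (limma 3.58.1, eBayes with trend, R 4.3.3), without further normalization. P-values were adjusted by Benjamini-Hochberg over all of them, with a threshold of 0.05. Library divisors were read from microRNA and snoRNA rows of known length. Whole reads followed for 99.9% of 7035 single-transcript rows (absolute tolerance 1e-06 plus relative 3e-07), as the smallest whole numbers that fit, so they may be too low by a common factor. For Zbtb39 a doubled length would exceed the gene. The limma fit was also run on simulated counts with a fixed dispersion, which may differ from the spread of these libraries. Promoters are RefSeq windows of GRCm38.p6, and 29 of 34 members matched by symbol. Gene order came from RefSeq for the same build and served only to find adjacent genes.

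Members and lists were chosen with earlier results of these data known. Per-library values are given for called members, the 6 largest changes each way, the 5 highest levels and the role lists. Other lists give called genes, otherwise the 2 with the smallest p, and neighbours were taken to 5 genes on each side. Python 3.11.15, numpy 2.4.6, pandas 2.3.3 and matplotlib 3.10.9 were used.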

Additional observations from a re-analysis of the deposited data

How the results depend on the processing

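Alternatives were a pseudocount of 0.1, no filter, a filter at 5 RPKM, quantile normalization, median centring, no mean-variance trend, a replicate block and leaving out each library; limma-voom on recovered reads was added after the data were seen. Leaving out a library keeps a lone library in a group, assumed to vary like the others. The median log2 change of tested Zbtb genes was positive in every setting, at 0.031 to 0.096 with 1 library left out. The Zbtb count of 1 was 0 without the filter (2 at an unadjusted p below 0.05), 0 at 5 RPKM, where Zbtb39 is not tested, and 0 with any library left out. Ctcf had −0.89 (adjusted p 0.22) without the filter and −0.92 to −0.86 with 1 library left out (adjusted p 0.15 without either shLuc library). The count over all genes, 128, was 0 without the filter (1619 at an unadjusted p below 0.05), 60 without a trend, 350 with limma-voom and 0 to 78 with 1 library left out. The T lineage count of 1 was 0 without the filter, 0 without a trend, 3 with limma-voom and 0 with any library left out. The other BTB zinc finger genes gave 1 call with limma-voom. The cause of these shifts was not tested.

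The column numbers give only 2 pairs, too few to settle whether same-numbered libraries belong together. Deviations of same-numbered libraries correlated at 0.165 over genes, and the numbers were not taken as pairs. With the replicate block 507 genes were called, 1 of them a Zbtb gene (Zbtb39, adjusted p 0.011) and 2 of the T lineage list.

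Signs turned with 1 library left out in 12 of 33 genes followed singly, none of them called. Their ranges were −0.14 to 0.01 (Zbtb7a), −0.15 to 0.07 (Zbtb1), −0.05 to 0.23 (Zbtb33), −0.08 to 0.11 (Zbtb44), −0.01 to 0.08 (Zbtb2), −0.11 to 0.18 (Zbtb22), −0.24 to 0.17 (Zbtb6), −0.0049 to 0.13 (Zbtb34), −0.11 to 0.23 (Zbtb24), −0.04 to 0.16 (Zbtb49), −0.09 to 0.19 (Zbtb42) and −0.10 to 0.04 (Nab2 with Stat6). Depth limits the members below 1 RPKM, where a few reads decide a value.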
